A study of Mus musculus with 6 samples.

Results

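The genes described here are the 8 that encode the core machinery for making sterol regulatory element-binding proteins (SREBPs) active: Srebf1, Srebf2, Scap, Insig1, Insig2, Mbtps1, Mbtps2 and Rnf139. They were chosen by gene symbol, and each is represented by its probe set with 1 gene symbol and the highest mean over the 6 arrays. They are 8 of the 22180 genes with such a probe set, and all 8 lay above the signal filter that left 11090 genes for testing. RNA came from whole liver of male mice with a whole-body knockout of Gpr146 (KO) and of their wild-type (WT) littermates, with 3 mice of each genotype and 1 array per mouse. Gpr146 encodes a G protein-coupled receptor that has been linked to plasma cholesterol. Mice of both genotypes were 24 weeks old, on a C57BL/6J background and kept on chow. They had a fast of 16 hours and then 6 hours of refeeding before the liver was taken. The knockout affects every tissue of the animal, so the liver values are not those of a liver-specific deletion.

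SREBPs are made as precursors anchored in the membrane of the endoplasmic reticulum, where they are bound to the escort protein SCAP. When sterols are plentiful, INSIG proteins hold the SCAP complex in place. When sterols fall, SCAP carries the precursor in COPII vesicles to the Golgi, where the site-1 and site-2 proteases (Mbtps1 and Mbtps2) cut it and release the transcription factor. SREBP2, from Srebf2, mainly drives cholesterol synthesis, and SREBP1c, from Srebf1, drives fatty acid synthesis in liver after feeding. The array measured transcripts, not cleavage, so it does not report how much mature factor the livers held.

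Promoter windows are shown for the 4 genes set against each other in the comparisons, since Insig1, Srebf1 and Srebf2 are known to be targets of SREBPs themselves. The sequences are RefSeq's for build GRCm38.p6 and run from 250 bases before an annotated start to 50 bases after it. Of the 8 genes, 7 had at least 1 window, 12 windows in all; Rnf139 had none in the table used. The capitals mark the 6 letters TCACCC, which occur in classical sterol regulatory elements, or their reverse complement. These letters were chosen after the windows had been read, and 16.2% of all 32851 windows in the table hold them on either strand.
Insig1, chr5:28071162-28071461, plus strand: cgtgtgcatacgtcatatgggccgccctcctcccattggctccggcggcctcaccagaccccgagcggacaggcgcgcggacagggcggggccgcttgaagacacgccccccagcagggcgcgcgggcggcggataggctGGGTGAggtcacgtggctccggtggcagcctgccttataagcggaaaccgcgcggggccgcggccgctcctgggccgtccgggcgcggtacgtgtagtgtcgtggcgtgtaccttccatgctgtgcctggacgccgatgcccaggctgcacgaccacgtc
Srebf2, chr15:82147019-82147318, plus strand: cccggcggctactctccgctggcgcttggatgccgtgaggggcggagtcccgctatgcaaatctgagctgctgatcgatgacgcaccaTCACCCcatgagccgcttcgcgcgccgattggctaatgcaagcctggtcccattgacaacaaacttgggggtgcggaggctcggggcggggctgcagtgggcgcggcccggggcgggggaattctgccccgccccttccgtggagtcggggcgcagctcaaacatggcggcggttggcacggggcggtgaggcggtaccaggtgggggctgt
Srebf1, chr11:60210422-60210721, minus strand: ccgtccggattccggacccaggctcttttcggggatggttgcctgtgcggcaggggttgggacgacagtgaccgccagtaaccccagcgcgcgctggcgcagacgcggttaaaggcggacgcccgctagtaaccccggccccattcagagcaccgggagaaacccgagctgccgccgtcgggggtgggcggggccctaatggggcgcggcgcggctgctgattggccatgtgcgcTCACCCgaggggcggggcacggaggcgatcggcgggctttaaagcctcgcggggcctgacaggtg
Insig2, upstream start, chr1:121332540-121332839, minus strand: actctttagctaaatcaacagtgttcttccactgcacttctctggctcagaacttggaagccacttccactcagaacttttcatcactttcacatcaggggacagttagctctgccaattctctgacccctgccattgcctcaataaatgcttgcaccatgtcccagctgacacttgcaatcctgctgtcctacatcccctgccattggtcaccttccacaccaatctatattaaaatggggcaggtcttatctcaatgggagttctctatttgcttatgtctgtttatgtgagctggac
Insig2, middle start, chr1:121327975-121328274, minus strand: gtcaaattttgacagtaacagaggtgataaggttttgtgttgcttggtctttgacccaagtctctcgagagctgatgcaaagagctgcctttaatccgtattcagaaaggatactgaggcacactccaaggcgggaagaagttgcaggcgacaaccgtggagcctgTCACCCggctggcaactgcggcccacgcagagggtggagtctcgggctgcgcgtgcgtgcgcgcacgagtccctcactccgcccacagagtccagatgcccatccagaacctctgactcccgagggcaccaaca
TCACCC was found in 5 of the 12 windows, which belong to 4 genes. In the Insig1 window it begins 110 bases before the start, on the reverse strand. In Srebf2 it begins 162 bases before the start and is part of the longer TCACCCCA, which 1.56% of all windows hold. The most downstream of 3 annotated Srebf1 starts has it 15 bases before the start, and the windows of the other two Srebf1 starts, not printed, lack it. The upstream Insig2 window lacks these letters, the middle one has them 84 bases before the start, and the most downstream one, not printed, has them 44 bases before the start on the reverse strand. The letters CACGTG, found in 7.15% of all windows, stand 101 bases before the Insig1 start and in both Scap windows. No match says only that the letters are not in that window, and a match is not a binding site.

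Gpr146 served as the check of the genotype. Its signal was 4.61, 4.28 and 3.87 in KO mice 1 to 3, against 5.96, 5.56 and 5.65 in WT mice 1 to 3, on the log2 scale used throughout. The genotypes did not overlap, with KO lower, and the difference was -1.47 ± 0.19 (KO minus WT, ± SE; limma adjusted p = 0.0702). Alb, the albumin gene that marks hepatocytes, averaged 11.91 ± 0.01 in KO and 11.92 ± 0.02 in WT (SD, n = 3 each). Over all probe sets, pairs of arrays had correlations of 0.983 to 0.988. Over the genes tested, limma called 4 at an adjusted p under 0.05, which is 0.0361% of 11090: C130050O18Rik, D930048N14Rik and Map2k6 rose and Rhbg fell. That count was 51 without WT mouse 3 and 1 or 2 without any other mouse, so results are also given without WT mouse 3 where it decides a value. Summed marker signals of KO and WT livers overlapped for 9 of the 10 measured cell type lists. The exception was the bile duct list, with 2 of its 5 measured markers above the filter, whose summed linear signal was 85.1 to 99.7 in KO and 67.8 to 84.4 in WT. Its part in the results was not tested. Of the overlapping lists, that of T and NK cells had 1 of 6 measured markers above the filter. The B and plasma cell list had 1 of 5, and the neutrophil and monocyte list 0 of 6. Overlap in these lists is mostly that of signals below the filter. The pancreas acinar sum ran from 43.7 to 51.7 in KO and from 48.1 to 110 in WT. In whole liver, fewer cells of a type and less RNA per cell cannot be told apart.

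None of the 8 genes passed limma's threshold between KO and WT livers, and in none did the 3 KO values lie wholly on one side of the 3 WT values. Of all genes tested, 14.8% showed such separation. The differences of 4 genes were positive and of 4 negative, where 57.7% of all genes tested were above 0 and 42.3% below, with a median of 0.02, beside 0.03 over all genes tested. Insig1 had the difference of largest size, at -0.48, and was the 1 gene of the 8 with an unadjusted limma p under 0.05, a level reached by 9.13% of all genes tested and, with KO lower, by 2.98%. The plot of the 8 genes by mouse shows the overlap of the genotypes in each.

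**Figure D1:**
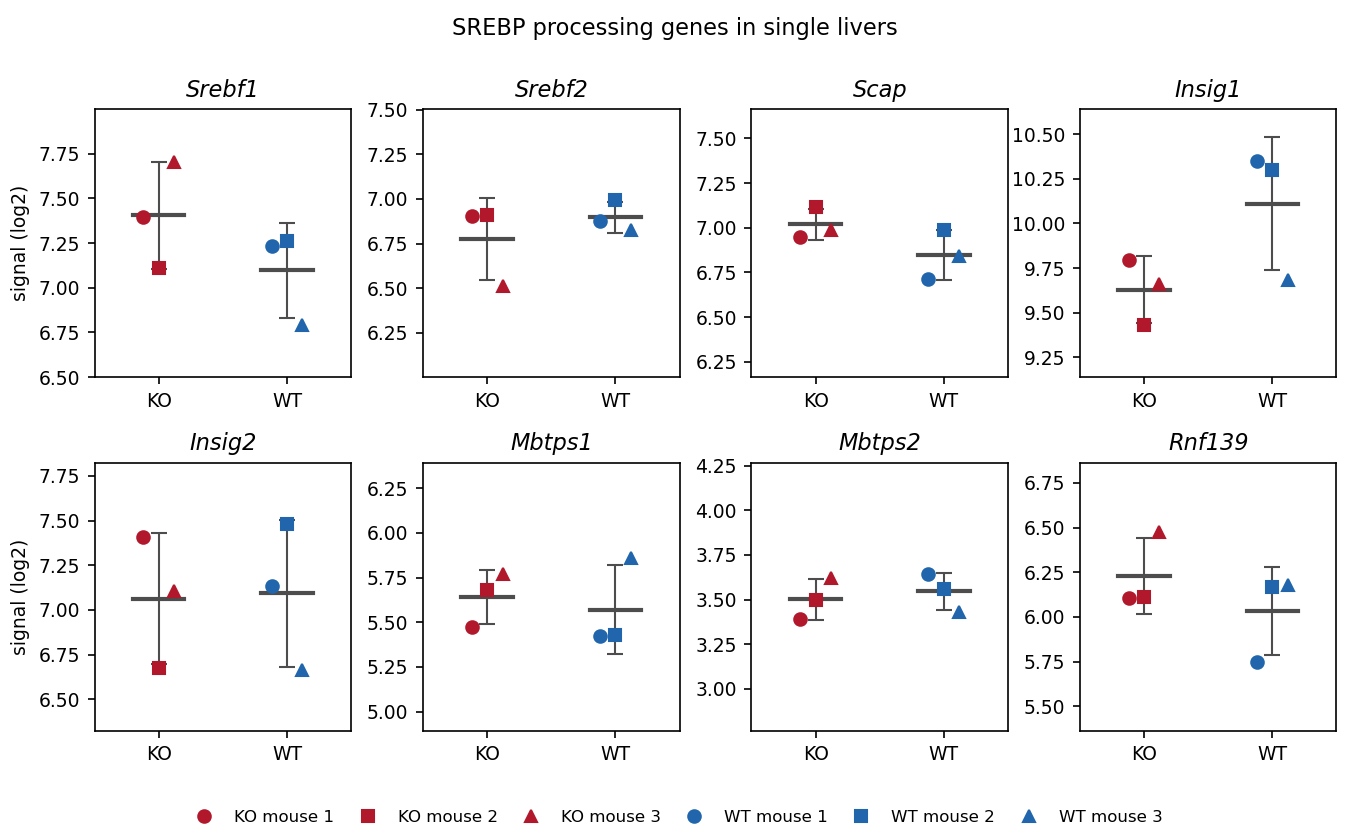
Log2 signal of the 8 genes in each liver, KO left and WT right; each symbol is 1 mouse, the bar is the mean and the whiskers are 1 SD (n = 3 each), and each panel spans the same log2 range around its own centre. In each gene at least 1 KO mouse overlaps the WT mice; in Insig1 the overlap is WT mouse 3 at 9.68 against KO mouse 1 at 9.80, and in Scap it is KO mouse 1 at 6.95 against WT mouse 2 at 6.99.

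Insig1 encodes the sterol-sensitive anchor that holds SCAP in the endoplasmic reticulum and that SREBPs themselves induce. Its signal was 9.80, 9.43 and 9.66 in KO mice 1 to 3, against 10.35, 10.30 and 9.68 in WT mice 1 to 3. The KO livers lay within a narrow range, while WT mouse 3 stood apart from the other two WT mice and inside the KO range. The means were 9.63 ± 0.19 in KO and 10.11 ± 0.37 in WT (SD, n = 3 each). The difference of -0.48 ± 0.18 (SE) corresponds to a KO signal 0.717 times that of WT, with a 95% interval of 0.536 to 0.958 (limma, unadjusted p = 0.0290, adjusted p = 0.484). The exact two-sided permutation p was 0.2, where 3 against 3 cannot go below 0.1. Without WT mouse 3 the difference was -0.70 and the adjusted limma p was 0.102; with any other mouse left out it ran from -0.56 to -0.36.

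Insig2 encodes the second anchor, which is not induced by SREBPs. Its liver form in mice is known to be raised by fasting and lowered by insulin. The 1 Insig2 probe set gives a value for the gene, with no separate value for that form. Signals were 7.41, 6.68 and 7.11 in KO mice 1 to 3, against 7.13, 7.48 and 6.66 in WT mice 1 to 3. Both genotypes covered nearly the same range, from 6.68 to 7.41 in KO and from 6.66 to 7.48 in WT, the widest spread within a genotype among the 8 genes. The difference was -0.03 ± 0.23 (SE; limma adjusted p = 0.983), and its 95% interval of -0.56 to 0.50 leaves room for a difference as large as that of Insig1. Leaving out WT mouse 2 or KO mouse 2 turned the sign, to 0.17 and 0.16, and the value was -0.24 without WT mouse 3.

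The 2 INSIG genes were set against each other within each liver. The log2 signal of Insig1 minus that of Insig2 on the same array was 2.39, 2.75 and 2.55 in KO mice 1 to 3, against 3.22, 2.82 and 3.02 in WT mice 1 to 3. Each KO mouse lay below each WT mouse, although neither gene alone separated the genotypes. WT mouse 3, which was lowest of the WT mice in both genes, lay between the other WT mice in this quantity. The KO mean was 2.57 ± 0.18 and the WT mean 3.02 ± 0.20 (SD, n = 3 each), a difference of -0.45 ± 0.16 (SE), or 1.37-fold. The exact two-sided permutation p was 0.1, the smallest this design allows, and 0.2 after Benjamini-Hochberg adjustment over the 2 pairs compared, so the difference did not pass the threshold. With each mouse left out in turn it ran from -0.55 to -0.35. The level of such a quantity depends on the probes of the 2 genes and has no meaning of its own; only its change between genotypes is read.

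**Figure D2:**
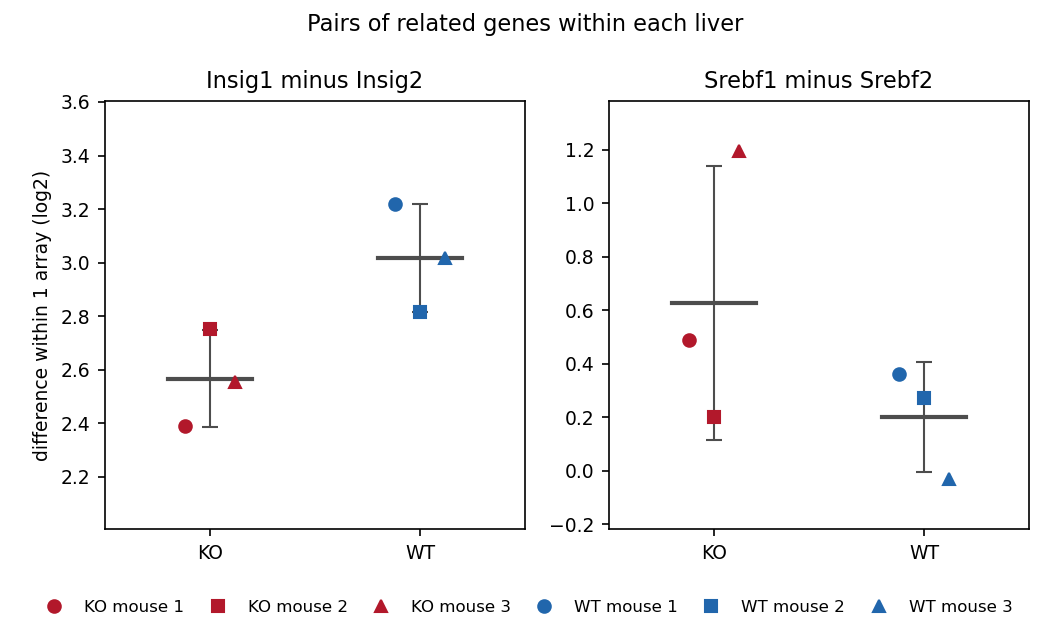
Difference in log2 signal between 2 genes on the same array, Insig1 minus Insig2 (left) and Srebf1 minus Srebf2 (right), with KO left of WT in each panel; symbols are mice, bars are means and whiskers are 1 SD (n = 3 each). The KO mice lie at 2.39 to 2.75 and the WT mice at 2.82 to 3.22 for the INSIG genes, while the genotypes overlap for the SREBP genes.

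Srebf1 encodes SREBP1a and SREBP1c from alternative starts, which 1 probe set does not tell apart. Its signal was 7.40, 7.11 and 7.71 in KO mice 1 to 3, against 7.24, 7.26 and 6.79 in WT mice 1 to 3. KO mouse 3 was the highest of all and WT mouse 3 the lowest, and KO mouse 2 lay below WT mice 1 and 2. The means were 7.41 ± 0.30 in KO and 7.10 ± 0.26 in WT (SD, n = 3 each). The difference was 0.31 ± 0.18 (SE), with a 95% interval of -0.10 to 0.71 (limma adjusted p = 0.635). It was 0.16 without WT mouse 3 or without KO mouse 3.

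Srebf2 encodes SREBP2, which induces its own gene. Values were 6.91, 6.91 and 6.51 in KO mice 1 to 3, against 6.87, 6.99 and 6.82 in WT mice 1 to 3. Among the KO livers, mice 1 and 2 lay within the WT range and mouse 3 lay below it. The means were 6.78 ± 0.23 in KO and 6.90 ± 0.09 in WT (SD, n = 3 each), and the difference was -0.12 ± 0.13 (SE; 95% interval -0.41 to 0.17, limma adjusted p = 0.815). Without KO mouse 3 it was 0.01.

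The 2 SREBP genes had differences of opposite sign, and their unequal change was tested within arrays. Srebf1 minus Srebf2 was 0.49, 0.20 and 1.19 in KO mice 1 to 3, against 0.36, 0.27 and -0.03 in WT mice 1 to 3. KO mouse 2 was below WT mice 1 and 2, so the genotypes overlapped. The means were 0.63 ± 0.51 in KO and 0.20 ± 0.21 in WT (SD, n = 3 each), a difference of 0.43 ± 0.32 (SE; exact two-sided permutation p = 0.3, also 0.3 after adjustment over the 2 pairs). It was 0.14 without KO mouse 3, the mouse highest in Srebf1 and lowest in Srebf2, and 0.31 to 0.64 without any other mouse.

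Scap encodes the escort that carries SREBP precursors to the Golgi and senses membrane cholesterol. The signal was 6.95, 7.12 and 6.99 in KO mice 1 to 3, against 6.71, 6.99 and 6.84 in WT mice 1 to 3. The highest WT mouse, number 2, was above the lowest KO mouse and level with KO mouse 3. The difference was 0.17 ± 0.11 (SE; 95% interval -0.07 to 0.41, limma adjusted p = 0.656), and it stayed positive, from 0.10 to 0.24, with each mouse left out. A second Scap probe set had a mean of 2.53, below the filter value of 2.99, and was not used; averaging the pair gave 0.05.

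Mbtps1 encodes site-1 protease, which makes the first cut of SREBPs and also cuts ATF6. Signals were 5.47, 5.68 and 5.77 in KO mice 1 to 3, against 5.42, 5.43 and 5.86 in WT mice 1 to 3. WT mouse 3 was the highest of the 6 and the other two WT mice were the lowest. The difference was 0.07 ± 0.14 (SE; 95% interval -0.26 to 0.39, limma adjusted p = 0.919), and 0.21 without WT mouse 3. Mbtps2, on the X chromosome, encodes site-2 protease, which releases the factor from the membrane. Its signal was 3.39, 3.50 and 3.62 in KO mice 1 to 3, against 3.64, 3.56 and 3.43 in WT mice 1 to 3, which is close above the filter. The genotypes overlapped almost fully, with a difference of -0.04 ± 0.10 (SE; 95% interval -0.28 to 0.19, limma adjusted p = 0.930). Background can compress differences at such low signal, which was not tested here.

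Rnf139 encodes TRC8, a ubiquitin ligase of the endoplasmic reticulum that binds INSIG proteins. Values were 6.10, 6.11 and 6.48 in KO mice 1 to 3, against 5.75, 6.17 and 6.18 in WT mice 1 to 3. KO mice 1 and 2 lay within the WT range, KO mouse 3 above it, and WT mouse 1 was the lowest of the 6. The difference was 0.20 ± 0.15 (SE; 95% interval -0.15 to 0.55, limma adjusted p = 0.724), and it dropped to 0.06 with WT mouse 1 left out and to 0.07 with KO mouse 3 left out. The plot of differences shows how far each of the 8 values moved when 1 mouse was left out.

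**Figure D3:**
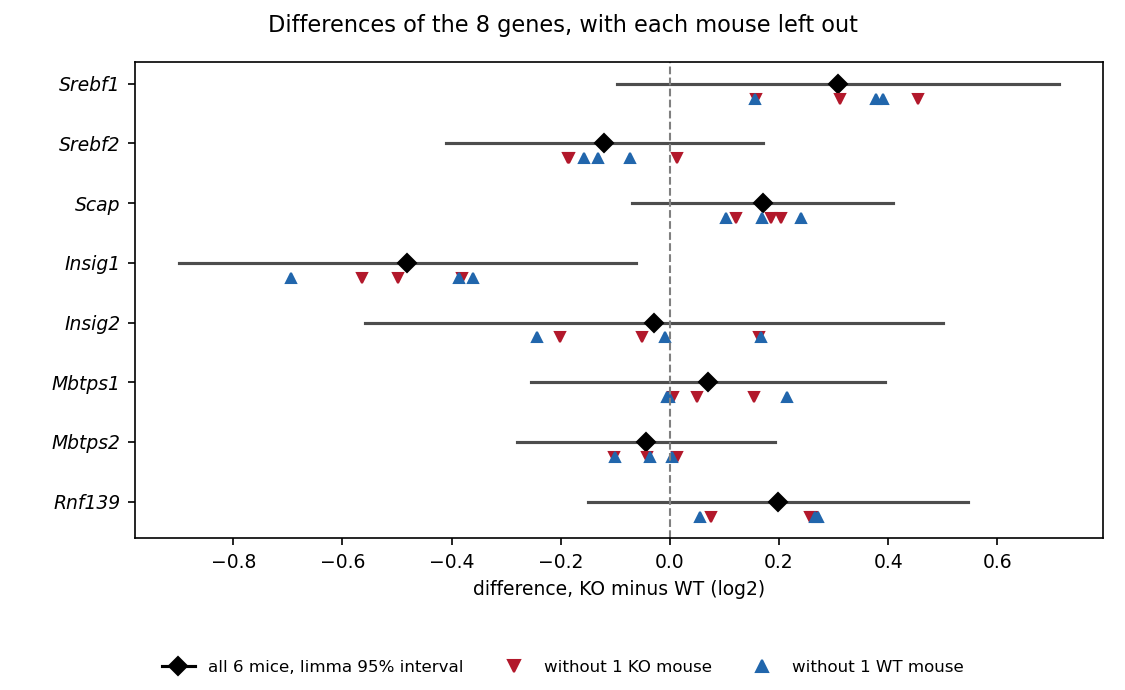
Difference in log2 signal, KO minus WT, for the 8 genes; the diamond and line are the value from all 6 mice with limma's unadjusted 95% interval, and the triangles are the values with 1 KO mouse (pointing down) or 1 WT mouse (pointing up) left out. Insig1 is the 1 gene whose interval does not reach 0 before adjustment; Srebf1, Scap, Insig1 and Rnf139 keep their sign with each mouse left out.

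Among themselves the 8 genes did not move as a block over the 6 livers. Of the 28 pairs, Insig1 and Insig2 had the highest Pearson correlation, at 0.65 over 6 arrays, followed by Mbtps1 with Rnf139 and Scap with Rnf139, both at 0.60. The lowest were Insig2 with Mbtps1 at -0.78 and Insig1 with Mbtps1 at -0.76. These are descriptions of 6 arrays of both genotypes, and WT mouse 3, which was lowest in Insig2 and Srebf1 and highest in Mbtps1, enters each of them.

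The genes whose signal ran most like that of a member were found by Pearson correlation over the 6 arrays, among 10249 other named genes. With 6 points and so many genes, very high values are found for any gene, so the names describe these arrays only. For Insig1 they were Taf1, Rasa4 and Ccn1, at 0.989, 0.986 and 0.985, and for Insig2 Abcb1a, Cpeb4 and Gyg, at 0.986, 0.984 and 0.984. Srebf1 was matched by Pip5k1c, Rapgef2 and Ranbp10 at 0.992, 0.986 and 0.985, and Srebf2 by Abcc3, Pctp and Hspa12b at 0.991, 0.981 and 0.966. Scap ran with Gjb1, Zfyve26 and Ttc5 at 0.999, 0.996 and 0.990. Mbtps1 ran with Rpl4, Mfhas1 and Keg1 at 0.999, 0.991 and 0.988, and Mbtps2 with Oxsr1, H2-DMa and Cox15 at 0.979, 0.978 and 0.978. Rnf139 ran with Lsm14a, Rabif and Cep83 at 0.997, 0.995 and 0.993. None of the 8 genes was among the 3 nearest of another.

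Genes that act around this machinery were described from 3 further lists, in which 0 members passed limma's threshold and 1, 0 and 2 had an unadjusted limma p under 0.05, a level that 9.13% of all genes tested reached. The first held INSIG-linked ubiquitin ligases and their partners, COPII coat genes and other SREBP regulators; 28 of its 33 genes were tested, and their median difference was 0.02. Of these, 3 had every KO value above every WT value, beside 9.63% of all genes tested, and 2 every KO value below, beside 5.16%. Erlin2, part of the complex that links INSIG-bound proteins to degradation, was at 0.16 ± 0.09 (SE), and the COPII coat genes Sec24d and Sec31a were at 0.16 ± 0.11 and 0.11 ± 0.09. Of the 10 COPII genes tested, 6 had positive and 4 negative differences, from -0.14 to 0.16, and Sar1b, named after its values were seen, was at -0.08 ± 0.09 with every KO value below every WT value. Marchf6, a ubiquitin ligase acting on squalene epoxidase, was at -0.10 ± 0.09. Trib1, a pseudokinase linked to plasma lipids, was the 1 gene of that list with an unadjusted limma p under 0.05 and was named after its values were seen. It measured 6.05, 6.15 and 6.08 in KO mice 1 to 3, against 7.35, 7.92 and 5.99 in WT mice 1 to 3. WT mouse 3 lay below all KO mice there. The Trib1 difference was -0.99 ± 0.40 (SE; limma adjusted p = 0.509), and without WT mouse 3 it was -1.54 and passed (limma adjusted p = 0.00691). In that fit 51 of 11090 genes passed, Trib1 among them, beside 4 with all 6 mice.

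Other substrates of site-1 protease, such as Atf6 and Creb3l3, had 6 of 7 genes tested, with a median of 0.05 and a range of -0.01 to 0.22. Atf6, a sensor of misfolded protein, was at 0.22 ± 0.11 (SE; limma adjusted p = 0.602). The genotypes separated in 0 of the 6, beside 14.8% of all genes tested. Atf6 and Creb3l3 were named after their values were seen. The genes known to act on Srebf1 transcription, among them LXR, insulin signalling and ChREBP genes, had a median of 0.19 over 11 tested, with 10 positive and 1 negative. Of them 3 had every KO value above every WT value, beside 9.63% of all genes tested. Mlxipl, which encodes ChREBP, was at 0.54 ± 0.13 (SE; limma adjusted p = 0.315). Nr0b2, the repressor SHP, was at 0.72 ± 0.29 (limma adjusted p = 0.509) and at 0.35 without WT mouse 3, and Akt2, an insulin-signalling kinase, at 0.23 ± 0.11 (limma adjusted p = 0.564).

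Lists of genes taken as targets of the 2 factors give the setting for the machinery's own values. The SREBP2 list includes Mylip, at -0.10 ± 0.13 (SE), which is better known as a target of LXR. All 20 genes tested from that list, of 27, had negative differences, with a median of -0.53, beside 0.03 over all genes tested. In 14 of them every KO value lay below every WT value, beside 5.16% of all genes tested. Of the 20, 0 passed limma's threshold over all genes, while for 14 the unadjusted limma p was under 0.05, which held with KO lower for 2.98% of all genes tested. Pmvk and Hsd17b7, enzymes of cholesterol synthesis, were at -0.73 ± 0.12 and -0.96 ± 0.18 (SE; limma adjusted p = 0.210 and 0.228). Lss, lanosterol synthase, and Stard4, a sterol carrier, were at -0.66 ± 0.16 and -0.56 ± 0.14. The lists were chosen with these lower KO values known, so the counts are not independent evidence of it. The Insig1 difference of -0.48 lay inside the range of these 20 genes, which was -0.96 to -0.09, and so did that of Srebf2, at -0.12. That range is wide, as the median size of a difference over all genes tested was 0.10. Lying inside it therefore does not class Insig1 or Srebf2 with the targets.

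By mouse, the members and the SREBP2 targets shared some extremes and differed in others, and no correlation between them was computed. The median centred level of the 20 targets was -0.11, -0.06 and -0.58 in KO mice 1 to 3, against 0.18, 0.27 and 0.31 in WT mice 1 to 3. KO mouse 3 was the lowest there and in Srebf2, whereas Insig1 was lowest in KO mouse 2. WT mouse 3 was the highest in the targets but the lowest WT mouse in Insig1, Insig2, Srebf1 and Srebf2.

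The SREBP1c target list held fatty acid synthesis genes, their partners and the lipase gene Pnpla2, which was at -0.22 ± 0.12 (SE). Of its 20 genes 18 were tested, with a median of -0.16, 16 negative and 2 positive. Of them 2 had every KO value below every WT value, beside 5.16% of all genes tested. Limma's threshold was passed by 0 of the 18, and the unadjusted limma p was under 0.05 for 2, both with KO lower, beside 2.98% of all genes tested. Acss2, which makes acetyl-CoA from acetate, was at -0.38 ± 0.14 (SE; limma adjusted p = 0.478) and at -0.24 without WT mouse 3. Acly, ATP citrate lyase, was at -0.26 ± 0.11 (limma adjusted p = 0.516). Srebf1 itself had a difference of the opposite sign, at 0.31, which did not pass the threshold either. The plot of the lists sets the 8 genes beside these groups.

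**Figure D4:**
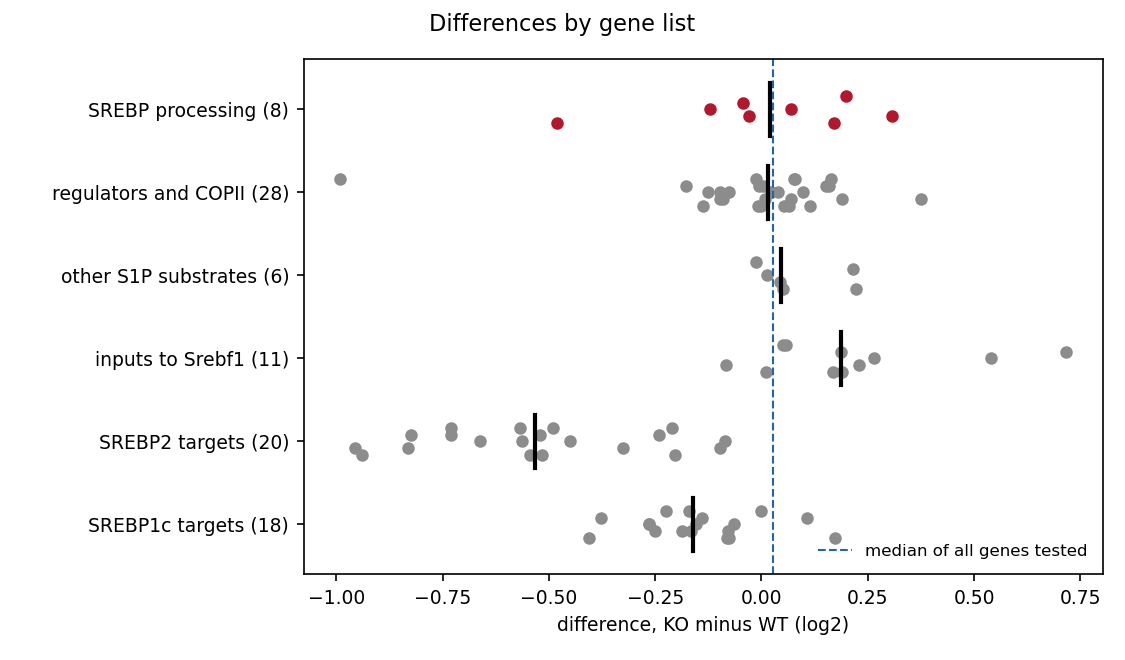
Difference in log2 signal, KO minus WT, of each gene tested in 6 lists, with the number of genes in brackets; black bars are list medians and the dashed line is the median of all 11090 genes tested, 0.03. The 8 SREBP processing genes lie on both sides of 0 with a median of 0.02, while all 20 genes tested of the SREBP2 target list lie below 0.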

How the data were processed

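Liver RNA of 6 mice was labelled as cRNA and hybridised to whole-transcript Affymetrix arrays, per the labels' protocols. The authors deposited log2 signals of 41345 probe sets, in a table with a column for each mouse. How these were summarised and normalised was not given in the sources used here, and that they are log2 was inferred from their range. Gene names came from the platform's annotation and were brought up to date by Entrez number in the GRCm38.p6 gene table. Probe sets naming several genes (1814, among them 1 shared by Yy2 and Mbtps2) or none (16010) were not used. Of a gene's probe sets the one with the highest mean was used, and genes in the upper 50% of mean signal, from 2.99, were tested.

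KO and WT were compared with limma 3.58.1 in R 4.3.3 (two-sided, no covariate), with Benjamini-Hochberg adjustment at 0.05 over all 11090 genes tested, and single values by an exact permutation test. The fit was tested on simulated data. The members and lists were chosen with earlier results of these data known. Named genes were Gpr146, Alb, the 8 members, all genes past the threshold, up to 4 separated genes of smallest p in each of 5 pathway lists, and the 3 nearest genes by correlation; placeholder symbols were left out of the last. Trib1, Sar1b, Atf6, Creb3l3, Mylip and Pnpla2 are named outside this rule. Listed genes lacking a probe set of their own here were not analysed, the erythroid markers among them. The number of arrays limits the precision: the median standard error was 0.11. Nothing in the labels ties a mouse number to a litter or day, and no batch is given.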

Additional observations from a re-analysis of the deposited data

How the results depend on the processing

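None of the 8 genes passed the threshold under any of 15 alternatives, which gave 119 values, 112 of them with the same sign as with all 6 mice. The other 7 turned the sign: without WT mouse 1, Mbtps1 was at -0.0044 and Mbtps2 at 0.0041; without WT mouse 2, Insig2 was at 0.17 and Mbtps1 at -0.0021; without KO mouse 1, Mbtps2 was at 0.012; without KO mouse 2, Insig2 was at 0.16; and without KO mouse 3, Srebf2 was at 0.012. All 7 came from leaving out a mouse, and the 112 include values that could not differ from those with all 6 mice. A difference is unchanged by dropping the filter, using the upper 25% of signal, the trend and robust options or the replicate block. Averaging over probe sets could move Scap alone. Apart from Scap under averaging, agreement in sign there was fixed beforehand and says nothing of stability. With a mouse left out, Insig2 reached -0.24 (without WT mouse 3), Mbtps1 0.21 (without WT mouse 3) and Mbtps2 -0.10 (without KO mouse 3) at the other end. The count of genes past the threshold was 4 and ran from 1 to 51 with a mouse left out. It was 1 with a pseudocount of 16, 0 in the upper 25% of signal and 1 with the replicate block; the cause was not tested. Whether the mouse numbers pair the samples is not known. Deviations of same-numbered mice correlated at 0.06, -0.19 and 0.15, and those of differently numbered mice at -0.27 to 0.24. Values from so few mice cannot decide it. With the block, 0 of the 8 genes passed, the paired difference of Insig1 minus Insig2 was -0.45 (exact sign-flip permutation p = 0.25, the smallest that 3 pairs allow) and that of Srebf1 minus Srebf2 was 0.43. With each mouse left out, Insig1 minus Insig2 ran from -0.55 to -0.35 and Srebf1 minus Srebf2 from 0.14 to 0.64. Without a filter 4 genes passed, and quantile normalization gave 3. Median centring gave 5 and the trend and robust options 6. Exact tests on 3 against 3 cannot reach the threshold. Background can compress differences at weak signals such as that of Mbtps2, which was not tested.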
